A study of Mus musculus with 15 samples.

Results

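The translation initiation factors are the proteins that bring the small ribosomal subunit, the initiator tRNA and the mRNA together and set the reading frame. They were taken here as the protein-coding genes whose symbol begins with Eif and a digit from 1 to 6, outside the Y chromosome, which gave 53 of the 53023 genes in the table. Their mRNA was measured in mouse 2-cell embryos of the ICR strain, fertilized in vitro, cultured in KSOM medium and collected 32 hours after insemination. mRNA was injected 2 hours after insemination, and the study asked what disturbing nuclear actin filaments does to the transcriptome.

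The 6 libraries analysed form 3 pairs, each library being a pool of 5 embryos, and the labels contradict each other on what the pairs are. Pair C is annotated as injected with actinR62D-HA-NLS, a nuclear actin mutant that does not polymerize, but is titled as the non-injected control. Pair B is annotated as injected with actinWT-HA-NLS, wild-type nuclear actin, but is titled R62D. Pair A is annotated as non-injected, but is titled Wt. Both readings give the same pairs, so results are stated by pair, and a library is named by its pair and its replicate number. Since nothing says that the pools of a pair came from separate rounds of fertilization, p-values measure only the spread between these pools. The other 9 samples of the series were not analysed here.

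Assigned reads numbered 907210 to 1555431 per library. Libraries of the same pair correlated at r = 0.896 to 0.910 over 13443 genes, and libraries of different pairs at 0.895 to 0.923. On the first principal component, which held 28.7% of the variance, C2 (49.7) and A2 (49.3) lay apart from the other 4 libraries (-32.7 to -11.1). Of those 4, B2 was the highest (-11.1). Transcripts of the 2-cell stage were abundant in every library, the 10 markers summing to 1724 and 1255 FPKM in C, 2340 and 2725 in B and 1580 and 1030 in A. The 13 oocyte and maternal markers summed to 602.3 FPKM in C2 and 616.7 FPKM in A2, against 1087 to 1332 FPKM in the other libraries. Of 13 cumulus and granulosa markers 5 were at 0 in every library (Foxl2, Fshr, Inhba, Inha and Ptx3), and the list summed to 4.21 and 3.60 FPKM in C, 2.84 and 11.2 in B and 0.44 and 1.80 in A. The 7 blood markers summed to 10.97 to 89.2 FPKM, with Hbb-bs and Hbb-bt at 0. The 7 sperm markers summed to 31.4 to 52.1 FPKM, of which Ldhc alone gave 28.6 to 46.0 FPKM, with Prm1 and Tnp2 at 0.

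Initiation runs in steps that order the results below. The factor eIF2, bound to GTP, delivers the initiator tRNA, and the eIF4 proteins bind the mRNA's cap and unwind its leader. The large eIF3 complex holds these parts on the small subunit while eIF1 and eIF1A let it scan for the start codon, after which eIF5 and eIF5B allow the subunits to join. Phosphorylation of eIF2 by stress kinases and binding of eIF4E by inhibitor proteins are the best known brakes. The early mouse embryo translates stored maternal mRNA while its own genes switch on at the 2-cell stage.

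Some mRNAs of the translation machinery begin with a C followed by a run of pyrimidines, the 5′ TOP element, through which mTOR signalling controls their translation. The starts that RefSeq annotates (build GRCm38.p6) were searched on the sense strand for a C within 5 bases of the start followed by at least 4 further bases that are C or T. A start sequence was found for 42 of the 53 members, and 10 of them (23.8%) held such a tract at an annotated start, against 19.7% of the 27025 genes in the RefSeq table. The 4 members with the longest tracts are shown because they belong to the eIF3, eIF2 and eIF2B complexes described below. Each sequence covers 15 bases before and 15 bases from the annotated start, 5′ to 3′ on the gene's strand, with the tract in capitals.
Eif3f: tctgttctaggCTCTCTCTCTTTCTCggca
Eif2s3x: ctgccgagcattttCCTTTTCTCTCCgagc
Eif3l: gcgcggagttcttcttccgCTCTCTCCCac
Eif2b5: ccttcctctttCTCTCCCTgcaactacacc
They lie at chr7:108934400-108934429 (plus strand), chrX:94212637-94212666 (minus strand), chr15:79075208-79075237 (plus strand) and chr16:20498802-20498831 (plus strand). The tract is 15 bases long in Eif3f, 12 in Eif2s3x, 9 in Eif3l and 8 in Eif2b5. The 10 members with a tract had mean levels of 1.87 to 36.5 FPKM (median 12.5), and the 32 without had 0.03 to 481 FPKM (median 36.9). The starts used in these embryos were not measured, and a match to letters is not a measured element.

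Initiation factor mRNAs were abundant but very uneven. The mean over the 6 libraries was 100 FPKM or more for 10 members, 10 to 100 FPKM for 28, 1 to 10 FPKM for 14 and below 1 FPKM for 1. The median member stood at 28.3 FPKM, against 5.87 FPKM for the 8936 protein-coding genes tested, and 42 of the 53 members lay above 5.87 FPKM. In all, the members took 1.40% and 1.45% of reads in C, 1.29% and 1.41% in B and 1.21% and 1.47% in A, so the pairs overlapped. In such pools, fewer cells contributing RNA and less RNA per cell cannot be told apart. The plot of levels by gene shows that the differences between genes of a role mostly exceed those between libraries of a gene.

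**Figure D1:**
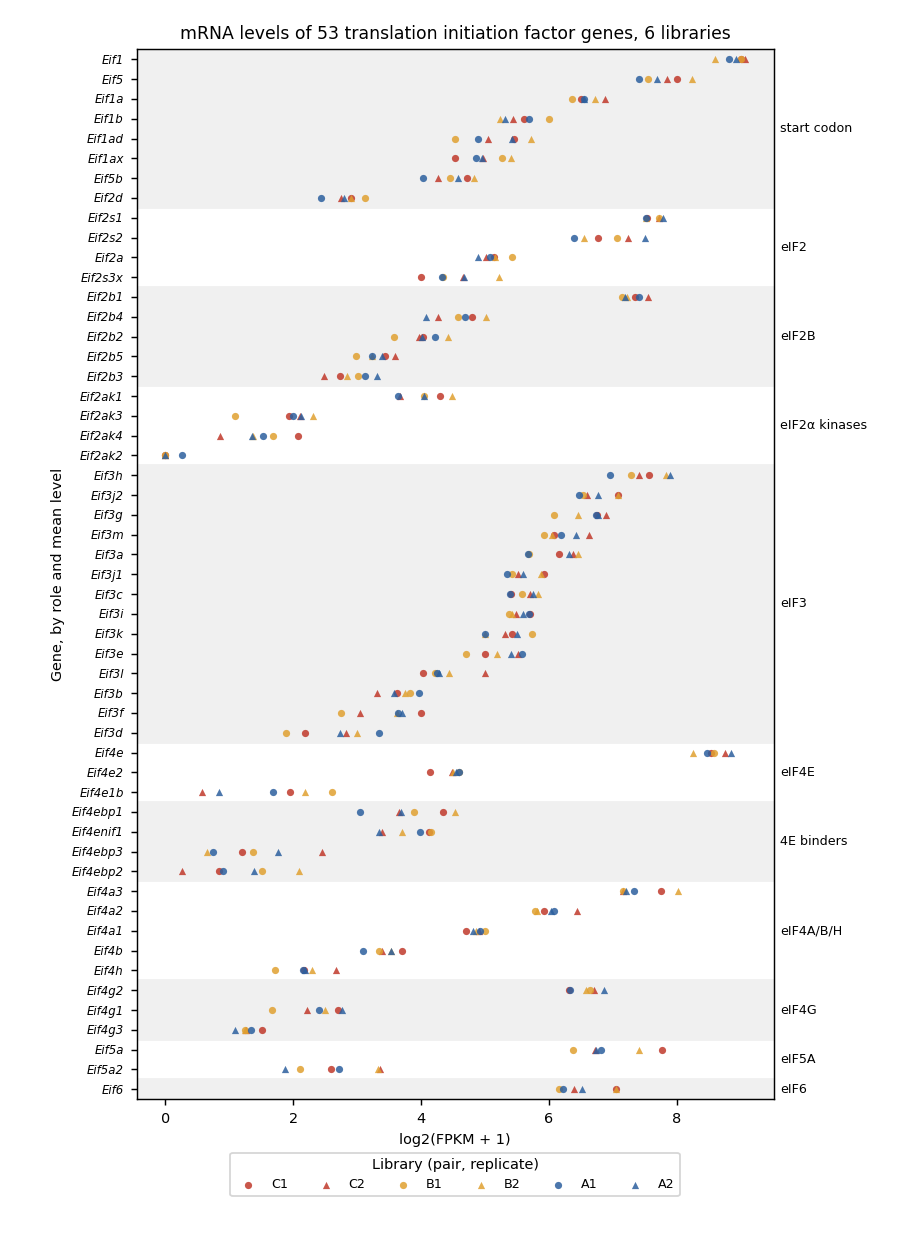
mRNA level of the 53 initiation factor genes in 6 libraries, as log2(FPKM + 1) on the horizontal axis, with genes grouped by role and ordered by mean level within a role; colour marks the pair (C red, B yellow, A blue) and shape the replicate. Eif1 (mean 481 FPKM) and Eif4e (mean 384 FPKM) were highest, Eif2ak2 had reads in A1 alone, and within a gene the 3 colours mostly intermingle.

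Among the factors that act at the start codon, Eif1 was the most abundant member of all. Its product guards the fidelity of start codon choice. Eif1 (chromosome 11, 100319885 to 100322096, mm10) measured 512 and 533 FPKM in C, 514 and 387 in B and 452 and 487 in A. The values differed 1.38-fold at most, with B2 lowest. Eif5 (chromosome 12, 111538016 to 111546752) encodes the protein that makes eIF2 hydrolyse its GTP. It measured 255 and 229 FPKM in C, 186 and 302 in B and 169 and 205 in A. Both C libraries lay above both A libraries, and B overlapped with each. Eif1a and the X-linked Eif1ax both encode eIF1A. Eif1a measured 89.4 and 116 FPKM in C, 81.6 and 105 in B and 92.8 and 92.8 in A. Eif1ax measured 22.1 and 30.1 FPKM in C, 37.6 and 41.6 in B and 28.1 and 29.9 in A, so that B was highest, while C and A overlapped. The Eif1 relative Eif1b averaged 46.6 ± 9.57 FPKM, Eif1ad, which shares a domain with eIF1A, 36.5 ± 10.8 FPKM, Eif5b, the GTPase of subunit joining, 21.6 ± 4.46 FPKM, and Eif2d, which can place tRNA on the ribosome without eIF2, 6.12 ± 1.09 FPKM (SD, n = 6 libraries).

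The 3 subunits of eIF2 were not present at equal mRNA levels. Eif2s1, which encodes the alpha subunit that stress kinases phosphorylate (chromosome 12, 78861819 to 78887010), was among the steadiest members, at 185 and 211 FPKM in C, 210 and 183 in B and 183 and 219 in A. The highest value was 1.19 times the lowest, and the 3 pairs overlapped. Eif2s2, the beta subunit, measured 109 and 151 FPKM in C, 133 and 93.1 in B and 82.6 and 180 in A. Its extremes were the 2 libraries of pair A. Eif2s3x is the X-linked gene of the GTP-binding gamma subunit (chromosome X, 94188707 to 94212862). Its pyrimidine tract shown above lies inside these bounds, at an annotated start other than the outermost. Eif2s3x measured 15.01 and 24.3 FPKM in C, 19.4 and 36.3 in B and 19.0 and 24.5 in A. In every library Eif2s1 exceeded Eif2s3x, by 5.05-fold to 12.3-fold. Eif2a, a separate protein that can bind initiator tRNA, averaged 33.9 ± 4.48 FPKM (SD, n = 6 libraries).

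For the exchange factor eIF2B, which reloads eIF2 with GTP, the mRNA of 1 subunit far exceeded the others. Eif2b1, the regulatory alpha subunit (chromosome 5, 124570213 to 124579131), measured 162 and 186 FPKM in C, 141 and 149 in B and 168 and 146 in A. The 4 other subunits averaged 23.3 ± 5.68 FPKM (Eif2b4, delta), 15.7 ± 3.17 FPKM (Eif2b2, beta), 8.99 ± 1.42 FPKM (Eif2b5, epsilon, the catalytic subunit) and 6.69 ± 1.55 FPKM (Eif2b3, gamma; SD, n = 6 libraries). Every library had more Eif2b1 than Eif2b3, by 16.3-fold to 40.7-fold.

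Of the 4 kinases that phosphorylate eIF2 alpha, the heme-regulated kinase had the most abundant mRNA. Eif2ak1, its gene, measured 18.5 and 11.8 FPKM in C, 15.5 and 21.3 in B and 11.5 and 15.5 in A. Eif2ak3, the kinase of endoplasmic reticulum stress known as PERK, averaged 2.92 ± 0.97 FPKM, and Eif2ak4, the amino acid sensor GCN2, 1.87 ± 0.80 FPKM (SD, n = 6 libraries). Eif2ak2, the double-stranded RNA sensor PKR, had 1 read in A1 and 0 reads in the other 5 libraries, which allows up to 0.38 and 0.65 FPKM in C1 and C2, 0.46 and 0.49 FPKM in B1 and B2 and 0.52 FPKM in A2. It was the only member that did not pass the filter on low values, and it was not tested.

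The eIF3 complex, listed here with 14 genes, had a median level of 47.0 FPKM, and 7 of the 14 lay within 2-fold of that median. Eif3h (chromosome 15, 51786558 to 51865523) measured 188 and 169 FPKM in C, 155 and 228 in B and 123 and 236 in A, with A1 lowest and A2 highest. Eif3g, an RNA-binding subunit (chromosome 9, 20894349 to 20898623), measured 106 and 118 FPKM in C, 66.9 and 87.1 in B and 105 and 108 in A. Both B libraries lay below the other 4. Eif3a, the largest subunit, averaged 69.7 ± 16.02 FPKM, Eif3c, to which eIF1 binds, 48.1 ± 6.12 FPKM, and Eif3i 45.9 ± 4.52 FPKM (SD, n = 6 libraries). At the low end were Eif3l (20.2 ± 5.65 FPKM), Eif3b, part of the core (11.9 ± 1.99 FPKM), Eif3f (10.4 ± 3.36 FPKM) and Eif3d, which can itself bind the cap of some mRNAs (5.68 ± 2.35 FPKM). Eif3d rested on 6.5 to 17.5 reads per library, the fewest of the complex. Eif3h exceeded Eif3d in every library, by 13.5-fold to 57.5-fold.

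Eif3j1 and Eif3j2 code for the loosely bound j subunit and are near-identical copies. Eif3j2 appeared at 134 and 95.2 FPKM in C, 91.6 and 135 in B and 87.5 and 108 in A. Eif3j1 appeared at 59.9 and 44.9 FPKM in C, 41.8 and 58.0 in B and 39.8 and 47.4 in A. The ratio of Eif3j2 to Eif3j1 stayed between 2.12 and 2.32, the narrowest of the 12 paralogous pairs examined, while the listed length of Eif3j1 is 2.45 times that of Eif3j2. In reads the ratio was 0.91 and 0.87 in C, 0.89 and 0.95 in B and 0.90 and 0.93 in A. The reads of Eif3j2 were fractional in 5 of 6 libraries, so some were divided between genes, and the place of Eif3j2 among the 10 most abundant members is uncertain. Fractional reads occurred in at least 1 library for 44 of the 53 members. Processed pseudogenes of the family also held reads, up to 213 FPKM in Eif1-ps1 and 56.8 FPKM in Eif4a-ps4. Others reached 55.1 FPKM in Eif3s6-ps2 (at most 13.5 reads), 45.2 FPKM in Eif3s6-ps1 and 39.5 FPKM in Eif5al3-ps. Levels of Eif1, the eIF4A genes, Eif3e and Eif5a are therefore uncertain where reads were divided.

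Among the cap-binding genes, Eif4e mRNA far exceeded the others. Eif4e, whose product binds the cap to recruit the ribosome (chromosome 3, 138526179 to 138559696), measured 370 and 433 FPKM in C, 384 and 306 in B and 355 and 459 in A, and the pairs overlapped. Eif4e2, which encodes a relative that represses translation of some mRNAs, measured 16.6 and 21.3 FPKM in C, 23.1 and 21.5 in B and 23.1 and 22.3 in A. Both C libraries lay below the other 4. Eif4e1b, the cap-binding relative known from oocytes, measured 2.85 and 0.49 FPKM in C (10 reads and 1 read), 5.08 and 3.53 in B (14.5 and 9.5 reads) and 2.22 and 0.79 in A (5 and 2 reads). Its lowest libraries, C2 and A2, were the ones with the lowest summed oocyte markers, a sum of which Oosp1 was the largest part. These values of Eif4e1b rest on 1 read and 2 reads, and the part of maternal RNA in its values was not tested. The mean of Eif4e was 18.02 times that of Eif4e2 and 154 times that of Eif4e1b.

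The mRNAs of the proteins that bind eIF4E were low beside its own. Eif4ebp1 (chromosome 8, 27260329 to 27276674) measured 19.3 and 11.5 FPKM in C, 13.9 and 22.1 in B and 7.29 and 11.8 in A, so that both B libraries lay above both A libraries. Eif4ebp2 measured 0.78 and 0.19 FPKM in C (7 reads and 1 read), 1.85 and 3.26 in B (13.5 and 22.5 reads) and 0.86 and 1.62 in A (5 and 10.5 reads). Both C libraries were below the other 4. Eif4ebp3 had at most 3 reads in any library. Eif4enif1, whose product carries eIF4E into the nucleus and into repressed particles, averaged 13.1 ± 3.39 FPKM (SD, n = 6 libraries).

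The helicase and scaffold mRNAs differed in level among relatives. Eif4a3, the helicase of the exon junction complex rather than of initiation (chromosome 11, 119288363 to 119300089), measured 216 and 142 FPKM in C, 143 and 259 in B and 161 and 146 in A. C1 and B2 stood above the other 4 libraries. Eif4a2, a helicase of initiation, measured 59.4 and 85.3 FPKM in C, 54.3 and 55.0 in B and 66.9 and 64.4 in A. Its close relative Eif4a1 measured 25.1 and 29.1 FPKM in C, 31.0 and 28.1 in B and 29.4 and 27.2 in A. Eif4a2 exceeded Eif4a1 in 6 of 6 libraries, by 1.76-fold to 2.93-fold. However, Eif4a1 had fractional reads in 6 libraries, and the pseudogene Eif4a-ps4 held 34.2 to 56.8 FPKM, so this order is uncertain. The helicase partner Eif4b averaged 9.87 ± 1.53 FPKM and the partner Eif4h 3.67 ± 0.997 FPKM (SD, n = 6 libraries). Eif4g2, whose product lacks the eIF4E binding site of the canonical scaffold (chromosome 7, 111067750 to 111083030), measured 78.6 and 103 FPKM in C, 99.4 and 94.4 in B and 79.3 and 115 in A. Eif4g1, the canonical scaffold, averaged 4.36 ± 1.32 FPKM and Eif4g3 1.44 ± 0.24 FPKM (SD, n = 6 libraries). The ratio of Eif4g2 to Eif4g1 ran from 14.3 in C1 to 45.4 in B1.

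Last, Eif5a, which encodes a hypusine-bearing protein that helps elongation over difficult stretches (chromosome 11, 69916714 to 69921958), measured 216 and 105 FPKM in C, 82.0 and 170 in B and 111 and 106 in A. Its relative Eif5a2 averaged 5.80 ± 2.77 FPKM (SD, n = 6 libraries). Eif6, whose product keeps the large subunit from joining early (chromosome 2, 155819832 to 155826925), measured 132 and 83.2 FPKM in C, 70.7 and 132 in B and 73.8 and 90.2 in A. For both genes C1 and B2 were the highest libraries, and the libraries of C and of B lay farther apart than those of A.

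**Figure D2:**
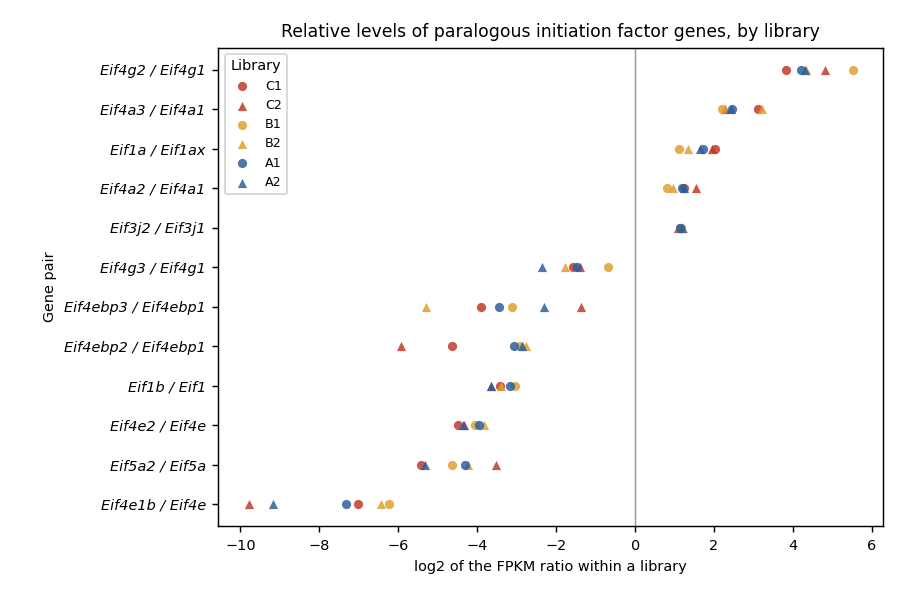
Ratio of FPKM between 12 pairs of paralogous genes within each library, on a log2 axis, with the first gene over the second; colour marks the pair (C red, B yellow, A blue) and shape the replicate. Every ratio kept its side of 0 in all 6 libraries, from Eif4g2 over Eif4g1 at the top (mean levels 94.96 and 4.36 FPKM) to Eif4e1b over Eif4e at the bottom (mean levels 2.49 and 384 FPKM), and Eif3j2 over Eif3j1 varied least.

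In all 12 paralogous pairs the ranges of the 2 genes over the 6 libraries did not overlap. The difference on the log2(FPKM + 1) scale, taken within each library, was 1.60 ± 0.34 for Eif1a minus Eif1ax, 1.14 ± 0.25 for Eif4a2 minus Eif4a1, 4.19 ± 0.48 for Eif4g2 minus Eif4g1 and -1.10 ± 0.41 for Eif4g3 minus Eif4g1 (SD, n = 6 libraries). It was -3.36 ± 0.25 for Eif1b minus Eif1, -4.31 ± 0.63 for Eif5a2 minus Eif5a, -4.11 ± 0.26 for Eif4e2 minus Eif4e and -6.94 ± 0.95 for Eif4e1b minus Eif4e. These differences are a description, with no test, and rest on the listed gene lengths and on how reads shared between genes were divided.

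Between libraries, the median tested member varied 1.81-fold from its lowest to its highest library, and 36 of 52 members varied less than 2-fold. The same was not computed for all tested genes, so the members cannot be called steadier than other genes. The largest ratios belonged to members with few reads, 17.1 for Eif4ebp2, 10.4 for Eif4e1b and 7.90 for Eif4ebp3. The median level of the 52 members relative to their own means was 0.06 and -0.03 in C, -0.12 and 0.10 in B and -0.08 and 0.02 in A (log2 scale). For all tested genes it was 0.12 and -0.06 in C, 0.02 and 0.03 in B and -0.01 and -0.08 in A. B1 and B2 thus held the lowest and the highest value of the members.

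**Figure D3:**
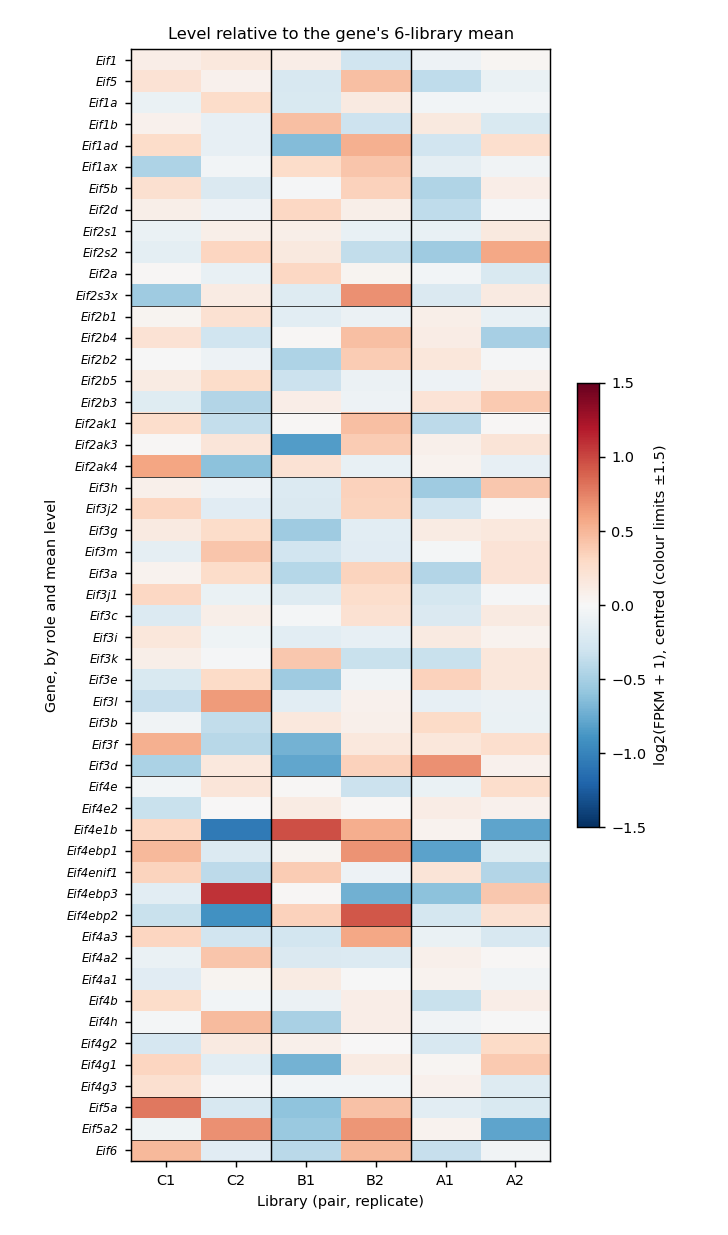
Level of each of the 52 tested members relative to its own mean over 6 libraries, as log2(FPKM + 1) from blue (lower) to red (higher), with genes in rows by role and libraries in columns ordered C1, C2, B1, B2, A1, A2. The 2 columns of a pair often have opposite colours, as for Eif5a (216 and 105 FPKM in C) and Eif6 (132 and 83.2 FPKM in C).

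Going by the annotation, C against B compares R62D with wild-type nuclear actin; going by the titles, non-injected embryos with R62D. No initiation factor passed the test of a difference between them: 0 of 52 members passed in limma (smallest adjusted p = 1), as did 0 of 13443 genes (0.0% called). At an unadjusted p below 0.05 there were 0 members higher and 1 lower, where 1.64% of all genes were higher and 2.22% lower. The coefficient was above 0 for 30 of 52 members, with a median log2 fold change of 0.04 (-0.05 without C1, -0.09 without B1 and 0.20 without B2), against 49.9% above 0 and a median of 0 for all tested genes. Both C libraries lay above both B libraries for 7 members (13.5%) and below for 7 (13.5%), against 15.5% and 14.8% of all genes. The 1 lower member was Eif4ebp2 (log2 fold change -1.26 ± 0.53 SE, 95% interval -2.51 to -0.01, adjusted p = 1 in limma), which rested on 1 to 22.5 reads per library. Its unadjusted p was 0.049 in limma and ran from 0.022 to 0.14 over 14 alternatives.

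Other members with pairs that did not overlap had smaller differences. Eif3g averaged 112 ± 8.02 FPKM in pair C and 77.0 ± 14.3 FPKM in pair B (n = 2 each, SD), a log2 fold change of 0.55 with a 95% interval of -0.11 to 1.20. Eif1ax averaged 26.1 ± 5.69 FPKM in pair C and 39.6 ± 2.85 FPKM in pair B, a log2 fold change of -0.60 with an interval of -1.32 to 0.12. Higher in mean in C, too, were Eif4a2, Eif2b5, the eIF3 subunit Eif3m and Eif2b1 (log2 fold changes of 0.38, 0.41, 0.37 and 0.26), and lower were Eif3b, Eif2b3, Eif4e2 and Eif2a (-0.33, -0.32, -0.23 and -0.22), each with an interval that includes 0. Without C2, a library apart on the first principal component, Eif4a2 had 0.12, Eif3m 0.09 and Eif2b1 0.16. Eif4e2 had -0.06 without C1, and Eif2a -0.08 without B1. The largest positive value was that of Eif4ebp3, whose pairs overlapped: 0.81 (interval -0.70 to 2.32), on at most 3 reads, and 0.19 without C2. Eif4e1b had -1.13 (interval -2.55 to 0.28), and -0.45 without C2.

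Going by the annotation, C against A compares R62D with embryos that were not injected; going by the titles, embryos that were not injected with wild-type actin. Again 0 of 52 members passed in limma (smallest adjusted p = 1), with 0 of 13443 genes called (0.0%), and 0 members had an unadjusted p below 0.05, where 1.67% of all genes were higher and 1.34% lower. The coefficient was above 0 for 33 members, with a median log2 fold change of 0.09 (0.04 without C1, 0.006 without A1, 0.03 with median scaling and 0.02 with quantile normalization), against 56.5% above 0 and a median of 0.06 for all tested genes. Pairs did not overlap for 3 members higher (5.77%) and 3 lower (5.77%), against 16.5% and 10.4% of all genes. Eif5 averaged 242 ± 17.9 FPKM in pair C and 187 ± 25.6 FPKM in pair A (n = 2 each, SD), a log2 fold change of 0.38 with a 95% interval of -0.37 to 1.13. Eif2b3 averaged 5.12 ± 0.78 FPKM in pair C and 8.33 ± 0.83 FPKM in pair A, a log2 fold change of -0.61 with an interval of -1.43 to 0.20, the lowest of the members. Eif2b5 and Eif1 (0.20 and 0.15) and Eif4e2 (-0.26) had smaller values, and the largest was that of Eif5a2, 0.68 (interval -0.62 to 1.98), whose pairs overlapped. Without A2, Eif5a2 had 0.26, and without C1, Eif4e2 had -0.09. By role, coefficients ran from -0.26 to -0.004 for the 3 genes of the eIF4E family and from -0.16 to 0.38 for the 8 start codon factors, with none called.

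Going by the annotation, B against A compares wild-type nuclear actin with embryos that were not injected; going by the titles, R62D with wild-type actin. In limma 0 of 52 members passed (smallest adjusted p = 0.991), 0 of 13443 genes were called (0.0%), and 0 members had an unadjusted p below 0.05, where 2.77% of all genes were higher and 1.79% lower. Of the members 30 had a coefficient above 0, with a median log2 fold change of 0.06 (-0.05 without B2, -0.006 without A1, -0.04 with median scaling and -0.005 with quantile normalization), against 55.1% above 0 and a median of 0.07 for all tested genes. Pairs did not overlap for 7 members higher (13.5%) and 8 lower (15.4%), against 18.8% and 12.8% of all genes. Eif4ebp1 averaged 17.98 ± 5.83 FPKM in pair B and 9.55 ± 3.20 FPKM in pair A (n = 2 each, SD), a log2 fold change of 0.85 with a 95% interval of -0.16 to 1.85, on 38.5 and 58 reads in B and 16 and 29 reads in A. Eif1ax averaged 39.6 ± 2.85 FPKM in pair B and 29.0 ± 1.27 FPKM in pair A, a log2 fold change of 0.44 with an interval of -0.29 to 1.16. Eif2ak1, Eif2d and Eif2a had log2 fold changes of 0.42, 0.40 and 0.30.

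Both B libraries lay below both A libraries for Eif3e, Eif3f, Eif3g, Eif3i and Eif3m of eIF3. The same held for Eif2b3 and Eif2b5 of eIF2B and for Eif4a2. Eif3g averaged 77.0 ± 14.3 FPKM in pair B and 107 ± 2.03 FPKM in pair A, a log2 fold change of -0.48 with a 95% interval of -1.13 to 0.18. Eif3e averaged 30.1 ± 7.27 FPKM in pair B and 44.0 ± 3.86 FPKM in pair A (n = 2 each, SD), a log2 fold change of -0.55 with an interval of -1.34 to 0.24. Since its pseudogenes also held reads, the level of Eif3e is uncertain, as stated above. Eif3f, Eif3m and Eif4a2 had log2 fold changes of -0.48, -0.32 and -0.26, each with an interval that includes 0, and Eif3f had -0.05 without B1. Of all 14 eIF3 genes 8 had coefficients above 0 and 6 below. The extremes among the members were Eif4e1b at 1.13 (interval -0.29 to 2.54) and Eif3d at -0.59 (interval -1.79 to 0.60), both on few reads. For Eif3d the pairs overlapped. Without A2, Eif4e1b had 0.71, and without B1, Eif3d had -0.03. C against B and B against A use the same B libraries, so their values for Eif3g and Eif1ax are not independent of each other.

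**Figure D4:**
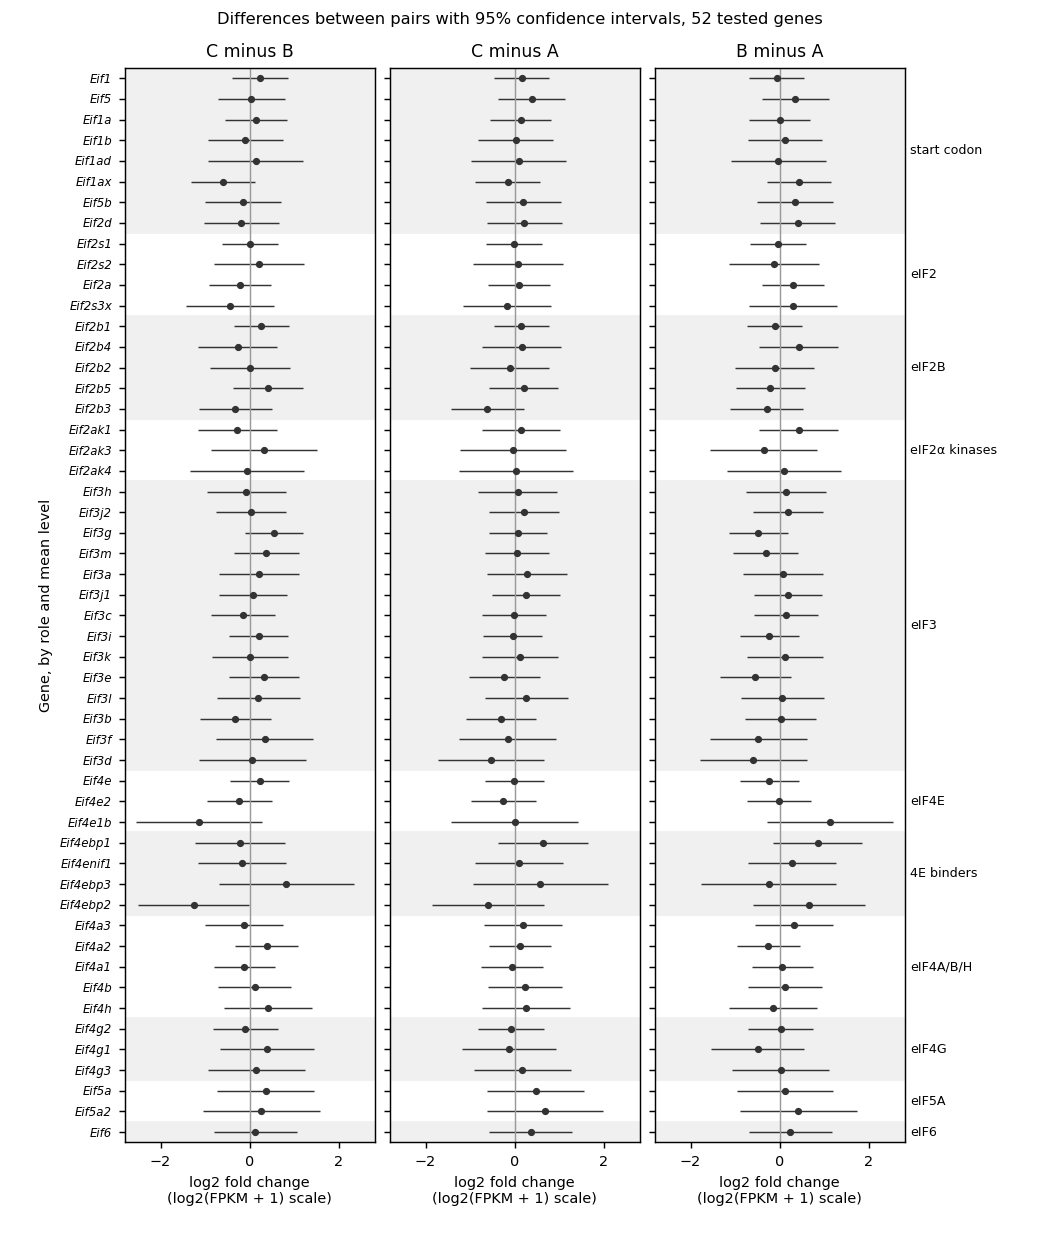
Difference between pairs for each of the 52 tested members, as a log2 fold change on the log2(FPKM + 1) scale (points) with its 95% confidence interval (lines), in 3 panels for C minus B, C minus A and B minus A. All intervals include 0 but that of Eif4ebp2 in C minus B (-2.51 to -0.01), and none of the members passed after adjustment.

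The intervals show how much could have been missed. The median interval reached 0.85 on either side of its estimate. It lay wholly within 1 log2 unit of 0 for 20 members in C against B, 20 in C against A and 21 in B against A, among them Eif4a1, Eif2s1 and Eif2b1 in all 3 comparisons. For the other members a change of 1 log2 unit lies within the interval of at least 1 side, so a p that missed the threshold does not show that the pairs were alike.

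The surrounding pathway gave the same kind of result, with 0 genes called in any comparison (limma). Of 13 elongation and termination factors 12 were tested, and 7, 8 and 6 had coefficients above 0 in C against B, C against A and B against A. Eef1g, a subunit of the elongation factor that recharges eEF1A, measured 4.70 and 1.80 FPKM in C, 3.22 and 3.87 in B and 1.06 and 0.37 in A (log2 fold change 1.25 ± 0.52 SE and adjusted p = 1 in C against A, 1.43 ± 0.52 SE and adjusted p = 0.991 in B against A). Eef1e1, a small protein bound to tRNA synthetases, measured 27.2 and 19.0 FPKM in B and 40.2 and 53.6 FPKM in A (log2 fold change -0.997 ± 0.38 SE, adjusted p = 0.991). Of 19 other factors that act at initiation 17 were tested, with 0 at an unadjusted p below 0.05, among them the helicase gene Ddx3x (77.6 to 103 FPKM) and the poly(A)-binding protein gene Pabpc1 (18.1 to 36.7 FPKM).

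In the mTOR and MNK pathway, 11 of 14 genes were tested, and only Rheb had an unadjusted p below 0.05, in C against B alone. Rheb, the small GTPase that activates mTOR complex 1, measured 29.9 and 42.4 FPKM in C and 19.1 and 20.7 FPKM in B (log2 fold change 0.81 ± 0.33 SE, adjusted p = 1 in limma). Of 14 symbols listed for the integrated stress response, the programme that follows eIF2 phosphorylation, 13 were present in the data and 9 were tested. Its transcription factor gene Atf4 measured 100.5 and 44.8 FPKM in C, 38.1 and 75.7 in B and 53.9 and 47.7 in A, and the pairs overlapped. Ppp1r15a, which directs the phosphatase of eIF2 alpha, ran from 42.4 to 77.5 FPKM. Nfe2l2, a transcription factor gene of the oxidative stress response, measured 9.82 and 3.485 FPKM in C, 9.997 and 10.8 in B and 2.63 and 2.36 in A. In B against A its log2 fold change was 1.71 ± 0.48 SE (unadjusted p = 0.0087, adjusted p = 0.931 in limma).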

How the data were processed

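Polyadenylated RNA from pools of 5 embryos was sequenced. The submitters' processing notes name Trimmomatic, Trim Galore, cutadapt, STAR and featureCounts and the build mm10. For versions, annotation and strand, nothing is given in the sources used here. The authors deposited FPKM values, scaled by gene length and by assigned fragments, for 53023 genes in 6 libraries. Per the labels, spike-in RNA was added; it was not used here, so amounts per embryo were not estimated.

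FPKM multiplied by length gave reads, up to 1 factor per library. Values above 0 were multiples of 0.01 read (tolerance 0.0002), and 55.58% to 57.88% were whole (tolerance 0.001), so reads shared between genes were divided. Limits from read numbers cover counting error only, since the labels name no molecular identifiers; a count of 0 allows up to 3 reads.

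Genes with a mean of 1 FPKM or more entered limma 3.58.1 (R 4.3.3) as log2(FPKM + 1), a scale that understates changes of low genes. The model had 1 mean per pair, all 6 libraries and a trend in the prior variance; Benjamini-Hochberg adjustment ran over 13443 genes, threshold 0.05. The alternatives changed the pseudocount (0.1), the filter (none, or 5 FPKM), the scaling (median or quantile), the trend, the libraries fitted (the compared pairs, or each left out), the gene set (protein-coding), or added the replicate number as a block. Named genes are the 10 most abundant, the highest and lowest of each role, paralogous pairs, and up to 5 per direction and comparison with the lowest p among members at 5 FPKM or more whose pairs did not overlap. Members with extreme fold changes, other members given by level, the tract search and the ranking of libraries were added after values were seen. Members, roles and lists were chosen with earlier results of these data known. Y-linked genes and 1 further gene are not reported here.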

Additional observations from a re-analysis of the deposited data

How the results depend on the processing

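Under the alternatives, 0 members passed in any comparison. The smallest adjusted p among members (limma) lay between 0.852 and 1 in C against B, between 0.989 and 1 for C against A and between 0.863 and 1 for B against A. With a pseudocount of 0.1, 1 gene of 13443 was called in C against B, against 0. It was Igkv13-87, no member, with 0 and 0 reads in C and 10 and 10 reads in B, named after its value was seen. The 1 member with an unadjusted p below 0.05 in C against B, Eif4ebp2, became 0 with no filter, with the filter at 5 FPKM, which leaves it out, with median scaling and with quantile normalization. With a library left out the count was 0 (without C2) to 2 (without C1), and without B2 the 1 member was Eif3g in its place.

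The members' median log2 fold change ran from -0.0935 (without B1) to 0.203 (without B2) in C against B, from 0.00578 to 0.127 in C against A and from -0.0519 (without B2) to 0.151 (without B1) in B against A. The difference Eif4ebp2 minus Eif4ebp1 was -3.52 with a pseudocount of 0.1, against -2.70; the cause was not tested. It was the 1 of 84 alternative values of paralogous differences that moved by more than 1 SD. For 31 named fold changes, all 461 alternative values kept their sign, a direction mostly fixed by choosing pairs that did not overlap. Deviations of same-numbered libraries correlated at 0.005, 0.20 and 0.10, and the model did not pair libraries by number. In each pair, though, library 2 lay higher on the first principal component (C -30.0 and 49.7, B -25.2 and -11.1, A -32.7 and 49.3). It also had the larger mitochondrial share of reads (C 7.23% and 10.9%, B 8.24% and 10.2%, A 10.55% and 13.1%). Whether same-numbered libraries were handled together was not tested. With the replicate block 0 genes were called, and 1 member, Eif4e1b, had an unadjusted p below 0.05 in B against A, against 0; in C against B the 1 member was Eif4e1b in place of Eif4ebp2. The planned limma-voom fit was made once, with no gene called in any comparison. It was then left out of the counts given here, because many recovered values were not whole reads and because a package was missing on rerunning. With 1 read worth 0.32 to 0.55 FPKM in a 2 kb gene, low members were poorly resolved at this depth.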

Other observations

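For each tested member, the 2 libraries with the highest values were recorded. C1 and B2 were the highest 2 libraries for 11 of 52 tested members (21.2%), against 12.7% of all tested genes, and these members were Eif5, Eif4a3, Eif5a, Eif3j2, Eif6, Eif3j1, Eif1ad, Eif2b4, Eif5b, Eif2ak1 and Eif4ebp1. Eif3j1 and Eif3j2 may share reads, so they may not count as separate members. C2 and A2 were the highest for 7 members (13.5%), against 8.16% of all tested genes, among them Eif4e, Eif2s1, Eif2s2 and Eif4g2. Some combinations held a smaller share of members than of all tested genes. C1 and A1 were the highest for 2 members (3.85%, against 10.1%), and C1 and B1 for 3 (5.77%, against 8.6%). Both libraries of a pair were the highest for 1 member in C (1.92%), 4 in B (7.69%) and 1 in A (1.92%). The shares of all tested genes were 6.14%, 7.41% and 4.14%. These members were Eif2b5 in C, Eif2a, Eif1ax, Eif4e1b and Eif4ebp2 in B, and Eif2b3 in A. This ranking was made after the values were seen and is a description, with no test.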
